A study of Mus musculus with 12 samples.

Results

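The genes described here encode the machinery with which the endoplasmic reticulum (ER) takes in, folds, glycosylates and discards proteins. They comprise 51 of the 11022 genes in the deposited expression table, chosen by symbol from a list of ER chaperones, disulfide isomerases, unfolded protein response (UPR) sensors, ER-associated degradation factors, signal recognition particle subunits, translocon subunits, signal peptidase subunits and oligosaccharyltransferase subunits. Their mRNA was measured by RNA sequencing in cytotoxic T lymphocytes (CTL) that were grown in IL-2 from LCMV-P14 TCR transgenic mice aged 9 to 13 weeks, whose CD8+ T cells carry a receptor for a lymphocytic choriomeningitis virus peptide. All 4 groups were kept in 20 ng/mL IL-2, and each group held 3 biological replicates. By the study's methods, all cells had first been primed with the peptide, IL-2 and IL-12, and then expanded in IL-2. Unstimulated CTL received no further peptide. TCR-stimulated CTL were given 100 ng/mL of the cognate viral peptide for 4 h, without inhibitor (TCR), with 10 µM IC87114, which inhibits the p110δ catalytic subunit of phosphoinositide 3-kinase (TCR + PI3Kδi), or with 2 µM PD184252, which inhibits the kinase MEK upstream of ERK1/2 (TCR + MEKi). Each inhibitor was used as 1 compound at 1 dose and 1 time, in cells of 1 receptor specificity.

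Most secreted and membrane proteins of a T cell, among them cytokines, perforin, granzymes and surface receptors, enter the ER through the Sec61 channel while they are still being translated. Inside the ER they are bound by chaperones of the Hsp70, Hsp90 and lectin families, and disulfide bonds and N-linked glycans are added. When unfolded proteins accumulate, the sensors IRE1α (encoded by Ern1), ATF6 and PERK (encoded by Eif2ak3) start the UPR, in which ATF6 and the IRE1α-processed transcription factor XBP1 raise transcription of chaperone and degradation genes, and PERK acts through ATF4 and CHOP (encoded by Ddit3). The response is best known in plasma cells and other cells with heavy secretion.

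Values are given as FPKM (fragments per kilobase of exon, scaled to library size by the authors), which allow levels of different genes to be set side by side. The libraries were alike within groups, with correlations of log2 values across genes of 0.992 to 0.995 between replicates. All 8 CTL markers examined were present, with summed levels from 11262 to 18782 FPKM. Of 12 B and plasma cell markers only Sdc1, Irf4 and Prdm1 were in the table, whereas Cd79a, Ms4a1, Jchain and Mzb1 were not. The sum of these 3 went from between 25.5 and 29.8 FPKM in unstimulated CTL to between 408 and 451 FPKM after TCR stimulation, nearly all of it from Irf4, and the part of these genes in the results below was not tested. By the study, Irf4 is also induced by the TCR in naïve CD8+ T cells, so it is not confined to B cells. Of 3 CD4 T cell markers 2 were in the table, summing to 5.27 to 11.3 FPKM. Of 11 myeloid markers 1 was in the table, Cd68, at 4.88 to 8.44 FPKM, and of 5 erythroid markers none was. Since these are bulk samples, a change in RNA per cell and a change in the share of responding cells cannot be told apart.

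The members were abundant. In unstimulated CTL their mean levels ran from 5.91 FPKM for Ern1 to 528 FPKM for Calr, with a median of 70.5 FPKM, and 27 of the 51 lay above the 90th percentile of all genes. After TCR stimulation the median was 89.3 FPKM and 32 members lay above that percentile. The summed level of the 51 genes was 5354 ± 239 FPKM (SD, n = 3, as for all group means) in unstimulated CTL, 7511 ± 214 in TCR, 6761 ± 237 in TCR + PI3Kδi and 6377 ± 34.0 in TCR + MEKi. Because the sum over all genes also moved, from 480159 to 639396, 563393 and 533000 FPKM, the members' share of it stayed between 1.11 ± 0.0176% in unstimulated and 1.20 ± 0.00489% in TCR + PI3Kδi.

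**Figure D1:**
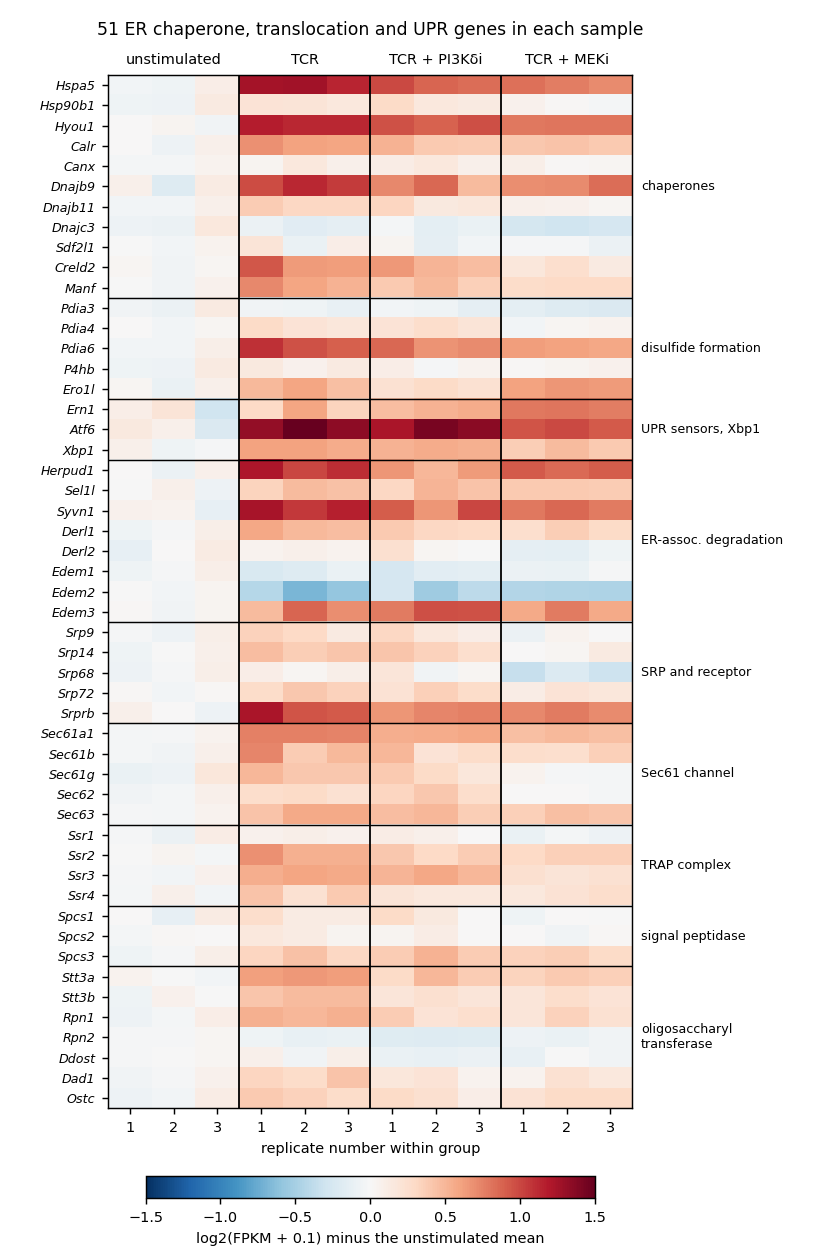
Heat map of the 51 members (rows, ordered by role) in the 12 samples (columns, 3 replicates per group). Colour shows log2(FPKM + 0.1) minus the mean of the unstimulated samples. The 7 members called at over 2-fold (Hspa5, Hyou1, Dnajb9, Atf6, Herpud1, Syvn1 and Srprb) were among the darkest rows in the TCR samples, and the rows of Edem2 and Edem1 were below the unstimulated mean in all 3 TCR samples.

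The first comparison asked how antigen receptor triggering changed these mRNAs. A gene was called when its adjusted p was under 0.05 in a linear model (limma) across all genes and its change exceeded 2-fold. By this rule 7 members were higher in TCR than in unstimulated CTL, beside 8.87% of all genes, and 0 were lower, beside 11.1% of all genes. At an adjusted p under 0.05 without a fold limit, 37 members (72.5%) rose, beside 33.6% of all genes, 2 fell, beside 34.9% of all genes, and 12 did neither. The median log2 fold change of the members was 0.42, against -0.01 for all genes, and 46 of 51 lay above 0. The 3 TCR values lay wholly apart from the 3 unstimulated values for 41 members, beside 71.2% of all genes. In a gene named for its call, such separation adds no support, since both rest on the same samples.

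Hspa5, which encodes BiP, the main Hsp70 chaperone of the ER lumen, had the highest level of any member after stimulation. Its level was 437, 430 and 479 FPKM in the 3 unstimulated samples and 1063, 1072 and 991 FPKM in the 3 TCR samples. The groups lay far apart, and the log2 fold change was 1.22 ± 0.06 (SE; adjusted p = 3.15e-10). Hyou1, an exchange factor for BiP, rose from 62.1, 63.2 and 59.6 FPKM to 139, 135 and 135 FPKM (log2 fold change 1.14 ± 0.05, adjusted p = 1.17e-11). Dnajb9, a J-domain partner of BiP that restrains IRE1α, rose from 12.3, 10.2 and 12.7 FPKM to 23.3, 25.7 and 24.3 FPKM (log2 fold change 1.05 ± 0.10, adjusted p = 2.25e-07). Groups did not overlap for any of these 3 chaperones, though without unstimulated replicate 2 the change of Dnajb9 was under 2-fold (0.96).

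The remaining chaperones changed less. Calr, a lectin chaperone for glycoproteins, rose from 528 ± 27.8 to 815 ± 28.9 FPKM (log2 fold change 0.63 ± 0.06, adjusted p = 2.25e-07). Creld2, a small ER protein induced by ER stress, rose from 51.6 ± 1.53 to 86.1 ± 10.7 FPKM (log2 fold change 0.73 ± 0.08, adjusted p = 7.1e-07). Hsp90b1, the ER Hsp90 known as GRP94, had 386 ± 33.0 FPKM before and 439 ± 8.07 FPKM after stimulation, and its log2 fold change of 0.19 ± 0.06 (adjusted p = 0.0167) turned to -0.22 when samples were scaled to a common sum and to -0.19 after quantile normalisation. It also lost its call without unstimulated replicate 1 or 2 (adjusted p between 0.0735 and 0.0775). On the deposited scale 8 of 11 chaperones rose by adjusted p and 0 fell, and Canx, Dnajc3 and Sdf2l1 did neither. Canx, the membrane-bound relative of Calr, had 130 ± 4.09 FPKM before and 138 ± 5.55 FPKM after stimulation (adjusted p = 0.116).

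Among the 5 genes of disulfide formation 3 rose. Pdia6, a disulfide isomerase, lay just inside the 2-fold limit, with 139, 140 and 152 FPKM in unstimulated CTL and 306, 279 and 267 FPKM in TCR (log2 fold change 0.98 ± 0.06, adjusted p = 2.85e-09). Ero1l, the oxidase that recharges the isomerases, rose from 46.8 ± 2.86 to 66.7 ± 3.35 FPKM (log2 fold change 0.51 ± 0.06, adjusted p = 1.16e-06). On the deposited scale Pdia3 and P4hb did not pass the test.

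All 3 genes of UPR signalling rose. Atf6, the membrane-bound transcription factor released by cleavage in the Golgi, had the largest log2 fold change of the 51 members, 1.40 ± 0.09 (adjusted p = 4.79e-09). It was a low-level gene, at 7.42, 7.07 and 5.77 FPKM before and 16.96, 19.51 and 17.15 FPKM after stimulation, with no overlap. Xbp1 rose from 102 ± 4.98 to 153 ± 3.12 FPKM (log2 fold change 0.59 ± 0.05, adjusted p = 5.96e-08), and gene-level values do not separate its spliced from its unspliced form. Ern1 rose from 5.91 ± 1.02 to 7.83 ± 0.919 FPKM (log2 fold change 0.41 ± 0.12, adjusted p = 0.00571).

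On the deposited scale ER-associated degradation was the one role with changes both ways, whereas on each of the other scalings chaperones, disulfide genes and oligosaccharyltransferase genes also had members passing in both directions. Herpud1, a membrane protein that assembles the retrotranslocation complex, rose from 54.4, 51.1 and 57.3 FPKM to 126, 109 and 117 FPKM (log2 fold change 1.11 ± 0.06, adjusted p = 9.59e-10). Syvn1, the ubiquitin ligase HRD1 of that complex, rose from 16.95, 16.90 and 14.91 FPKM to 38.2, 33.8 and 36.7 FPKM (log2 fold change 1.15 ± 0.08, adjusted p = 1.17e-08). In both genes the groups were apart. Edem2, which starts mannose trimming of misfolded glycoproteins, fell by 0.57 on the log2 scale, from 42.0, 41.2 and 43.6 FPKM to 31.4, 26.2 and 28.2 FPKM (adjusted p = 9.5e-06). Its relative Edem1 fell by 0.17, from 84.0 ± 4.42 to 74.6 ± 3.58 FPKM (adjusted p = 0.0138), a call that was lost without unstimulated replicate 3 (adjusted p = 0.064) or without TCR replicate 1 (adjusted p = 0.0524). Another family member, Edem3, rose from 6.25 ± 0.20 to 10.2 ± 1.44 FPKM (adjusted p = 3.19e-05).

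The genes that bring proteins to and across the membrane rose moderately. Of 5 genes for the signal recognition particle and its receptor 4 rose, with Srprb, the receptor's membrane-anchored subunit, the one called at 2-fold. It stood at 23.2, 22.1 and 20.9 FPKM in unstimulated CTL and at 51.6, 42.5 and 41.7 FPKM in TCR, so that replicate 1 was high within its group (log2 fold change 1.03 ± 0.08, adjusted p = 1.22e-08), and the change was under 2-fold without that replicate (0.93) or without unstimulated replicate 3 (0.99). Srp14, a subunit of the particle's Alu domain, rose from 124 ± 6.17 to 165 ± 5.03 FPKM (log2 fold change 0.42 ± 0.06, adjusted p = 1.54e-05). All 5 genes of the Sec61 channel and its partners rose. Sec61a1, the pore subunit, went from 121 ± 3.63 to 204 ± 1.23 FPKM (log2 fold change 0.75 ± 0.04, adjusted p = 8.17e-10), and Sec61b, an accessory subunit, from 238 ± 11.4 to 346 ± 43.2 FPKM (log2 fold change 0.53 ± 0.09, adjusted p = 5.86e-05).

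Downstream of the channel, 3 of 4 translocon-associated protein genes rose while Ssr1 stood at 34.0 ± 2.49 and 35.7 ± 0.313 FPKM (adjusted p = 0.298). Of the 3 signal peptidase genes 1 rose, and Spcs1 stood at 89.2 ± 7.42 and 100 ± 5.68 FPKM (adjusted p = 0.0601). Of 7 oligosaccharyltransferase genes, whose complex attaches N-glycans, 5 rose. The catalytic subunits Stt3a and Stt3b rose by 0.63 ± 0.05 (adjusted p = 8.42e-08) and 0.46 ± 0.05 (adjusted p = 9.56e-07) on the log2 scale, from 121 ± 4.27 to 188 ± 2.38 FPKM and from 63.6 ± 2.69 to 87.2 ± 2.25 FPKM. Dad1, a small subunit, rose from 29.2 ± 1.25 to 37.0 ± 2.10 FPKM (log2 fold change 0.34 ± 0.07, adjusted p = 0.000297), though its change was -0.07 when samples were scaled to a common sum.

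**Figure D2:**
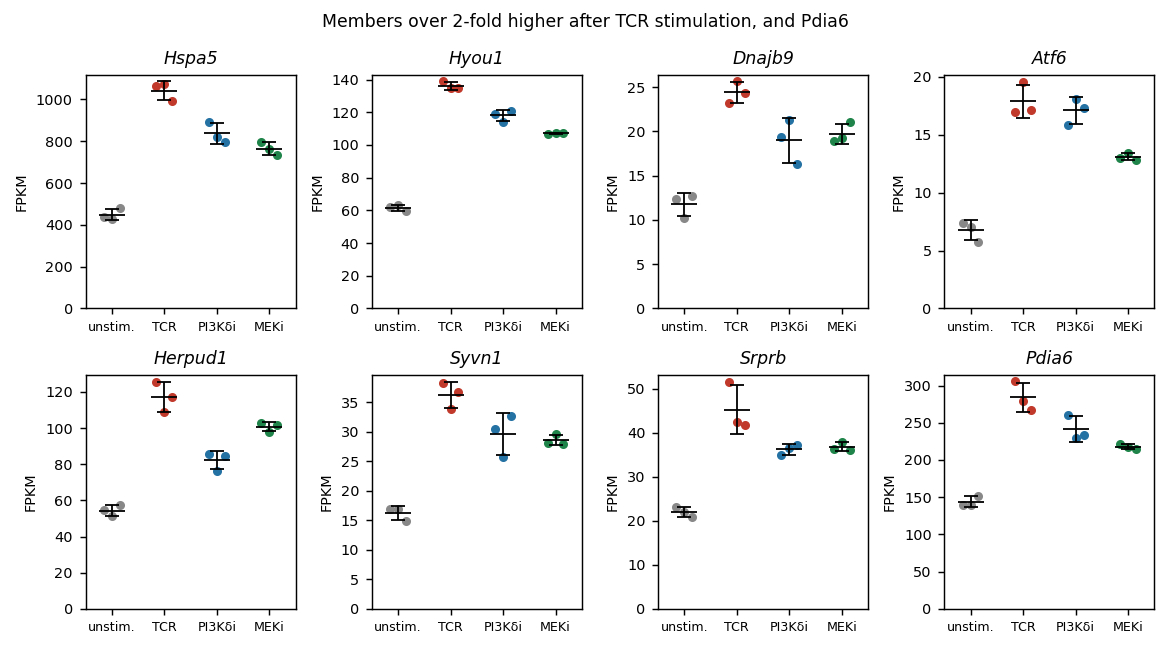
FPKM of the 7 members called higher after TCR stimulation, and of Pdia6 just under the 2-fold limit, in every sample (dots) with the group mean and SD (bars), on axes that start at 0. In each panel the 3 TCR values lay above the 3 unstimulated values, and for Atf6 the TCR + PI3Kδi dots overlapped the TCR dots while the TCR + MEKi dots lay lower.

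The size of these changes depended on how samples were scaled against each other. The deposited values carry the authors' normalisation, in which the median gene moved by -0.01. Scaling each sample to a common FPKM sum moved the median of all genes to -0.41 and that of the members to 0.00. On that scale 17 members rose and 18 fell by adjusted p, beside 15.3% and 60.9% of all genes. There 0 members were called, beside 5.87% of all genes called higher, and Hspa5, Atf6 and Syvn1 had log2 fold changes of 0.80, 0.99 and 0.74. Relative to the median gene the members stood at 0.43 as deposited, 0.42 on the common-sum scale and 0.30 after quantile normalisation, and 46, 46 and 39 of the 51 lay above it. The deposited and common-sum values are nearly equal by construction, since the common-sum scale shifts all genes of a sample almost alike. Their likeness adds no support. Of the 39 members that passed as deposited, 10 changed sign on the common-sum scale (Dad1, Dnajb11, Hsp90b1, Ostc, Pdia4, Sec62, Spcs3, Srp72, Srp9 and Ssr4). On that scale 16 of the 39 lost their call, and 12 other members gained one. Among those lost were Ern1, Ero1l, Srp14, Sec61b, Sec61g, Sec63, Stt3b and Dad1.

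Promoter sequence was examined because UPR target genes are known to carry the ER stress response element (ERSE), which ATF6 and XBP1 bind. RefSeq windows from 250 bases before to 50 bases after a transcription start (build GRCm38.p6) matched 42 of the 51 members, with 44 windows. The ERSE letters CCAAT and CCACG with 9 bases of any kind between them, searched on both strands, were present in windows of 8 members (Hspa5, Hsp90b1, Calr, Canx, Dnajc3, Creld2, Pdia6 and Syvn1), which is 19.0% of the genes matched. Counted by window, these were 8 of 44, beside 39 of 32851 windows overall (0.119%). The list was chosen to hold UPR genes, in which the element is already known, so this contrast is no independent result. The shorter ERSE-II, ATTGG and CCACG with 1 base of any kind between them, was in windows of Dnajb11 and Herpud1 and in 12 windows overall (0.0365%). The core TGACGTG of the UPR element was in that of Hspa5 and in 661 windows overall (2.01%). No match overlapped another.

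The 250 bases before the RefSeq starts of Hspa5, the most abundant member after stimulation, and Herpud1, the member with the largest fall under PI3Kδi, are printed 5′ to 3′ on the gene's strand, with matches to the UPR element core, ERSE or ERSE-II in capitals.
Hspa5, chr2:34771840-34772089, + strand: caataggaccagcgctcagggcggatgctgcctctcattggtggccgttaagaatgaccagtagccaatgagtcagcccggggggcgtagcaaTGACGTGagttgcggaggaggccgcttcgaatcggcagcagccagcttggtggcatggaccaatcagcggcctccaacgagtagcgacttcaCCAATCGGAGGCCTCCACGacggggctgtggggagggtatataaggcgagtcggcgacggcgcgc
Herpud1, chr8:94386179-94386428, + strand: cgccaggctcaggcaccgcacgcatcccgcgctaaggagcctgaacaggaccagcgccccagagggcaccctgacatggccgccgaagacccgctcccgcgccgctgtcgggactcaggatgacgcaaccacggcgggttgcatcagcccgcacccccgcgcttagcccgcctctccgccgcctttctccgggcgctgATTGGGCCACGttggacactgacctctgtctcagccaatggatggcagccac

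The matches of the other members are shown with 8 bases on either side, read on the gene's strand, so that the fixed ends and the variable middle can be compared. Calr and Creld2 hold the element in the opposite orientation, and Hsp90b1 holds 1 match in each orientation.
Syvn1, chr19:6046524-6046558, + strand: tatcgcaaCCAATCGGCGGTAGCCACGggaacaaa
Pdia6, chr12:17266483-17266517, + strand: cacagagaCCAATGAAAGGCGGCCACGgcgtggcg
Creld2, chr15:88819512-88819546, + strand: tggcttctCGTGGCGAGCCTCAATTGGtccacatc
Calr, chr8:84847067-84847101, - strand: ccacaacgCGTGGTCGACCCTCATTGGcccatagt
Hsp90b1 (distal), chr10:86705630-86705664, - strand: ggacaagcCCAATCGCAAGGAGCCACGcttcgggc
Hsp90b1 (proximal), chr10:86705525-86705559, - strand: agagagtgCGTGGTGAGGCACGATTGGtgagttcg
Canx, chr11:50325792-50325826, - strand: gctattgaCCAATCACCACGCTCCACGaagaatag
Dnajc3, chr14:118937819-118937853, + strand: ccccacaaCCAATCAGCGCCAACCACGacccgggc
Dnajb11, chr16:22857844-22857870, + strand: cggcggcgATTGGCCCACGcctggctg

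Carrying the letters and changing did not go hand in hand for each gene. On the deposited scale, of the 10 members with an ERSE or ERSE-II match 8 rose by adjusted p, 3 of them (Hspa5, Herpud1 and Syvn1) at over 2-fold, with a median log2 fold change of 0.68 and a range from -0.13 to 1.22. Canx and Dnajc3 carried an intact ERSE and did not pass on that scale, Dnajc3 going from 41.3 ± 4.13 to 37.6 ± 1.11 FPKM. Both passed as lower on the common-sum scale, and Dnajc3 also did so after quantile normalisation. Of the 32 members with a window but neither match 21 rose and 2 fell, with a median of 0.34, and Dnajb9 and Srprb among them were called at 2-fold. Counted from the start, the first base of these matches lay between -212 (Hsp90b1) and 7 (Dnajb11). Windows for Hyou1, Atf6, Sec61a1, Derl1, Ostc, Ssr2, Srp68, Manf and Spcs3 were not used here.

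The second comparison asked which members differed with PI3Kδi during stimulation. No group had an inhibitor without peptide, so an effect on the rise cannot be told apart from one on the level without peptide. With PI3Kδi 0 members passed the 2-fold rule against TCR alone, beside 1.88% of all genes. By adjusted p alone 18 members were lower, beside 12.8% of all genes, and 0 were higher, beside 12.7% (limma; at an unadjusted p under 0.05, 23 were lower and 1 higher). The median log2 fold change was -0.09 for the members and 0.02 for all genes. The 3 values of each group lay apart for 21 members, beside 37.6% of all genes. The count of 18 fell to 11 without TCR replicate 1 and to 11 without TCR + PI3Kδi replicate 3.

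Herpud1 fell most. Its values were 85.8, 76.4 and 84.7 FPKM with PI3Kδi against 126, 109 and 117 FPKM without, a log2 fold change of -0.51 ± 0.06 (adjusted p = 6.82e-05), so that 44.5% of its TCR-induced rise was left. Shares of a rise left are of the deposited values and were not computed on other scalings. They take the level without peptide as unchanged by the inhibitor, which was not tested. Dnajb9 stood at 19.4, 21.3 and 16.3 FPKM (log2 fold change -0.37 ± 0.10, adjusted p = 0.014), a call that was lost without TCR + PI3Kδi replicate 3, where Dnajb9 was lowest (adjusted p = 0.0723). Hspa5 stood at 893, 821 and 799 FPKM (log2 fold change -0.32 ± 0.06, adjusted p = 0.00238), which left 65.5% of its rise. Srprb (-0.31 ± 0.08, adjusted p = 0.00687) and Syvn1 (-0.29 ± 0.08, adjusted p = 0.0183) completed the 5 largest falls, the latter losing its call without TCR replicate 1 or 3 or TCR + PI3Kδi replicate 2 (adjusted p between 0.0528 and 0.0871).

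By role, the falls on the deposited scale took in 5 of 11 chaperones, 2 of 5 disulfide genes, 3 of 8 degradation genes, 1 of 5 targeting genes, 1 of 5 channel genes, 2 of 4 translocon-associated protein genes and 4 of 7 oligosaccharyltransferase genes. The latter were led by Stt3b, at 72.4, 75.4 and 71.9 FPKM against 84.6, 88.4 and 88.6 FPKM (log2 fold change -0.25 ± 0.05, adjusted p = 0.0018), and by Stt3a, at 159 ± 11.6 against 188 ± 2.38 FPKM (-0.25 ± 0.05, adjusted p = 0.00417). Dad1 fell to 32.2 ± 1.70 FPKM (-0.20 ± 0.07, adjusted p = 0.0356), a call lost in 3 of the 6 fits that left out 1 sample (adjusted p between 0.0638 and 0.142). Sec61a1 fell to 179 ± 2.4 FPKM (-0.19 ± 0.04, adjusted p = 0.00521), Ero1l to 55.6 ± 1.34 FPKM (-0.26 ± 0.06, adjusted p = 0.00351) and Calr to 713 ± 40.2 FPKM (-0.19 ± 0.06, adjusted p = 0.0267). Calr turned to 0.01 after quantile normalisation and lost its call in 3 of the 6 fits (adjusted p between 0.0911 and 0.0995).

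On the deposited scale none of the 3 UPR signalling genes and none of the 3 signal peptidase genes passed. Atf6 stood at 15.9, 18.1 and 17.3 FPKM with PI3Kδi, overlapping the TCR samples, with a log2 difference of -0.06 and a 95% interval from -0.26 to 0.14. Xbp1 differed by -0.05 (interval -0.16 to 0.05), Ern1 by 0.10 (-0.15 to 0.35) and Hsp90b1 by 0.00 (-0.13 to 0.14). Among the translocation genes Sec61b differed by -0.21 (-0.39 to -0.02, adjusted p = 0.0906), Srp14 by -0.08 (-0.20 to 0.05), Ssr1 by under 0.01 in size (-0.13 to 0.12) and Spcs1 by -0.02 (-0.18 to 0.14).

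The falls under PI3Kδi also moved with the scaling. On the common-sum scale the median of all genes moved to 0.19 and that of the members turned to 0.09. There 14 members were higher by adjusted p, beside 34.6% of all genes, and 1 was lower, beside 5.04%. After quantile normalisation 3 members were higher and 6 lower, beside 11.8% and 10.3% of all genes, with a median of 0.01. Herpud1 kept its direction in both, at -0.33 and -0.38, as did Dnajb9 at -0.19 and -0.36 and Hspa5 at -0.13 and -0.18. Of the 18 members that passed as deposited, 1 changed sign on the common-sum scale (Ssr4) and 1 after quantile normalisation (Calr), while 17 and 12 lost their call, Herpud1 being the member that kept it on the common-sum scale. Relative to the median gene the members stood at -0.11 as deposited, -0.10 on the common-sum scale and -0.01 after quantile normalisation. The deposited and common-sum values are again nearly equal by construction.

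**Figure D3:**
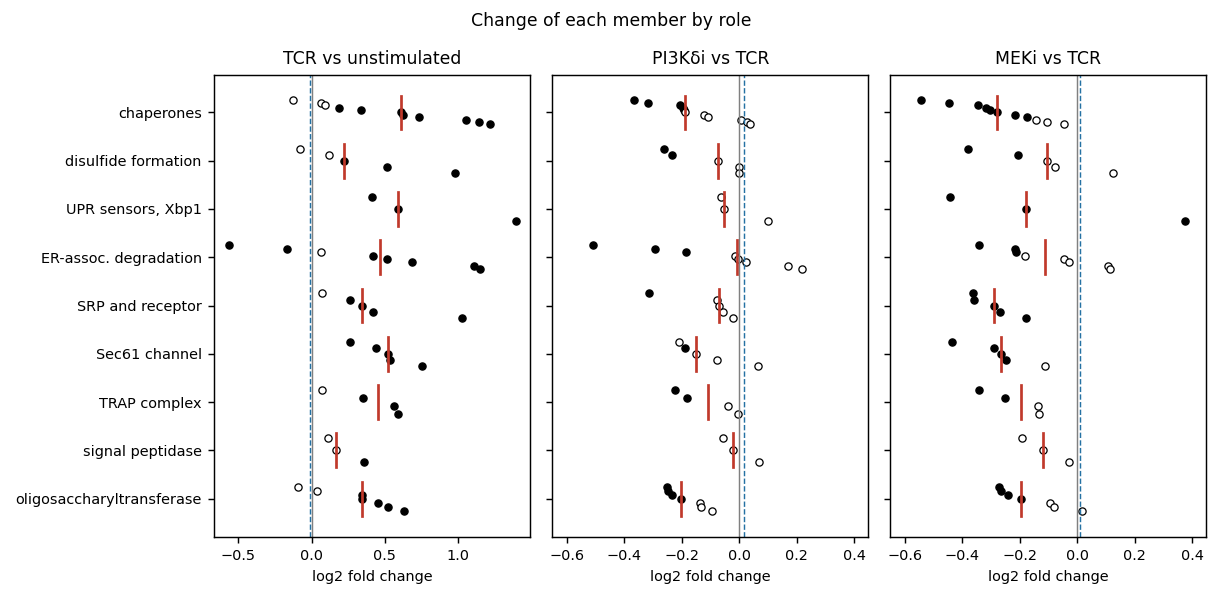
Log2 fold change of each member (dots, filled where the adjusted p was under 0.05) by role for 3 comparisons, with the median of the role as a red bar and the median of all genes as a dashed line. The left panel has a wider axis than the other panels. Most filled dots lay above 0 after TCR stimulation, 37 of 39, and below 0 with either inhibitor, 18 of 18 with PI3Kδi and 30 of 31 with MEKi.

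The third comparison asked the same of MEKi, with the same limit. With MEKi 0 members passed the 2-fold rule against TCR alone, beside 3.49% of all genes. By adjusted p alone 30 members were lower, beside 18.2% of all genes, and 1, Ern1, was higher, beside 18.9% (at an unadjusted p under 0.05, 36 were lower and 2 higher). The median log2 fold change was -0.21 for the members and 0.01 for all genes, and 46 of 51 lay below 0. The 3 values of each group lay apart for 39 members, beside 48.8% of all genes. Both inhibitor comparisons use the same 3 TCR samples, so they are not independent of each other.

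Creld2 fell most, from 98.5, 80.4 and 79.5 FPKM in TCR to 58.2, 61.4 and 56.8 FPKM with MEKi (log2 fold change -0.54 ± 0.08, adjusted p = 8.31e-05). The MEKi values lay below all TCR values and close above the unstimulated mean of 51.6 FPKM. Hspa5 stood at 797, 761 and 735 FPKM (log2 fold change -0.45 ± 0.06, adjusted p = 9.75e-05), which left 53.2% of its rise. Atf6 stood at 13.03, 13.43 and 12.81 FPKM (-0.44 ± 0.09, adjusted p = 0.002), which left 57.0% of its rise. Both shares are of the deposited values and were not computed on other scalings. They too take the level without peptide as unchanged by the inhibitor. Sec61g, the smallest subunit of the channel, stood at 135, 128 and 127 FPKM (-0.43 ± 0.07, adjusted p = 0.000374), within the range of the unstimulated samples (121 to 146 FPKM). Pdia6 stood at 221, 217 and 215 FPKM (-0.38 ± 0.06, adjusted p = 0.000321). In all 5 of these genes the MEKi samples did not overlap the TCR samples. They were chosen by adjusted p and direction in these same samples, so this adds no support.

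By role, on the deposited scale 8 of 11 chaperones fell, 2 of 5 disulfide genes, 2 of 3 UPR signalling genes, 3 of 8 degradation genes, all 5 targeting genes, 4 of 5 channel genes, 2 of 4 translocon-associated protein genes, 0 of 3 signal peptidase genes and 4 of 7 oligosaccharyltransferase genes. Among the targeting genes Srp14 fell from 170, 160 and 165 FPKM to 124, 126 and 136 FPKM (-0.36 ± 0.06, adjusted p = 0.000266), and Srp68, a further subunit, with 74.2 ± 4.55 FPKM in unstimulated CTL and 78.0 ± 1.93 FPKM in TCR, fell to 60.6 ± 3.02 FPKM (-0.36 ± 0.06, adjusted p = 0.000561). Sec61a1 fell to 167 ± 2.4 FPKM (-0.29 ± 0.04, adjusted p = 0.000138) and Sec61b to 290 ± 12.1 FPKM (-0.25 ± 0.09, adjusted p = 0.0348), the latter at 0.01 on the common-sum scale. Stt3a and Stt3b fell by 0.27 and 0.24 (adjusted p = 0.00139 and 0.00154), and Dad1 fell by 0.19 (adjusted p = 0.0312), with Stt3b at 0.02 and Dad1 at 0.07 on the common-sum scale. Xbp1 fell to 135 ± 5.02 FPKM (-0.18 ± 0.05, adjusted p = 0.0117) and Calr to 702 ± 9.46 FPKM (-0.22 ± 0.06, adjusted p = 0.0105), with Xbp1 at 0.09 and Calr at 0.05 on the common-sum scale.

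Smaller falls were close to the threshold. Herpud1 fell by 0.22 ± 0.06 (adjusted p = 0.0173), Dnajb9 by 0.30 ± 0.10 (adjusted p = 0.0264) and Hsp90b1 by 0.17 ± 0.06 (adjusted p = 0.0447), with Herpud1 at 0.05 and Hsp90b1 at 0.09 on the common-sum scale. Leaving out 1 sample at a time lost the call in 2 of 6 fits for Herpud1 (adjusted p between 0.0608 and 0.077), in 4 for Dnajb9 (0.058 to 0.0853), in 4 for Sec61b (0.0508 to 0.162), in 4 for Dad1 (0.0509 to 0.133) and in 1 for Xbp1 (0.0506). Hsp90b1 lost its call when any 1 of the 6 samples was left out (adjusted p between 0.0556 and 0.147) and with the replicate number as a block (adjusted p = 0.0504). Ssr1 differed by -0.14 (95% interval -0.26 to -0.01, adjusted p = 0.0806) and Spcs1 by -0.19 (-0.35 to -0.03, adjusted p = 0.0577).

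Ern1 went the other way. Its values were 10.2, 10.3 and 10.0 FPKM with MEKi, above the 7.22, 8.89 and 7.39 FPKM of the TCR samples and the 6.29, 6.68 and 4.75 FPKM of unstimulated CTL (log2 fold change against TCR 0.38 ± 0.12, adjusted p = 0.0198). This call was lost without TCR replicate 1 or 3 or without TCR + MEKi replicate 1 or 2 (adjusted p between 0.051 and 0.0723). Ero1l stood at 72.6 ± 1.63 FPKM against 66.7 ± 3.35 FPKM (0.12 ± 0.06, adjusted p = 0.098).

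As with PI3Kδi, the absolute direction depended on the scaling. On the common-sum scale the median of all genes moved to 0.26 and that of the members turned to 0.05. There 14 members were higher by adjusted p, beside 50.2% of all genes, and 3 were lower, beside 5.88%. After quantile normalisation 4 members were higher and 17 lower, beside 18.8% and 15.5% of all genes, with a median of -0.10. The 5 largest falls kept their sign in both, Creld2 at -0.28 and -0.45, Hspa5 at -0.18 and -0.21, Atf6 at -0.18 and -0.45, Sec61g at -0.17 and -0.30, and Pdia6 at -0.12 and -0.23. Of the 31 members that passed as deposited, 11 changed sign and 27 lost their call on the common-sum scale, Atf6 and Pdia6 among the latter, where Creld2, Hspa5, Sec61g and Ern1 kept it. Relative to the median gene the members stood at -0.22 as deposited, -0.21 on the common-sum scale and -0.12 after quantile normalisation. Here too the deposited and common-sum values are nearly equal by construction.

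**Figure D4:**
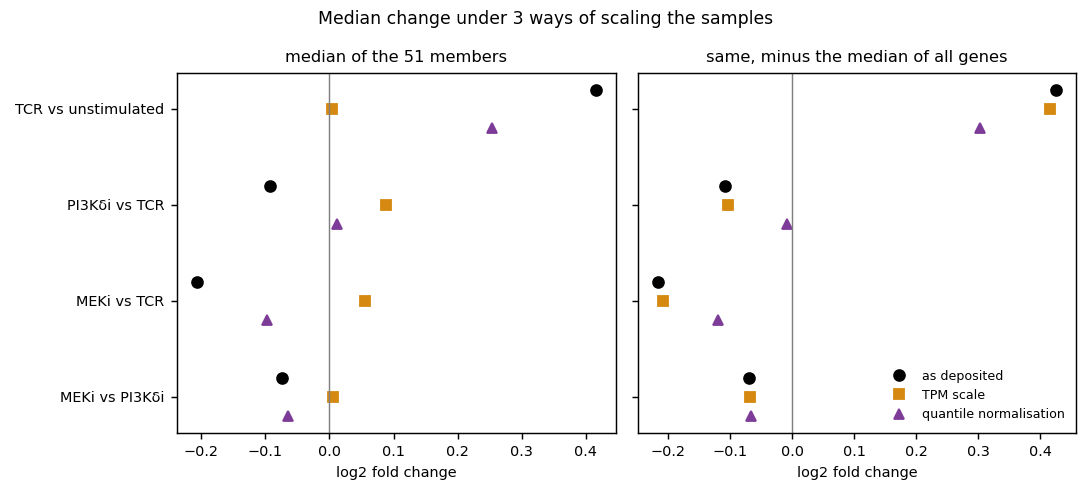
Median log2 fold change of the 51 members in the 4 comparisons under 3 ways of scaling the samples (left), and the same after subtracting the median of all genes on that scale (right), where TPM scale denotes scaling to a common FPKM sum. The left panel shows the members' median at 0.42, 0.00 and 0.25 for TCR against unstimulated, and the right panel shows 0.43, 0.42 and 0.30. In the right panel the deposited and TPM scale values are nearly equal by construction.

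The direct comparison of the inhibitors asked which members responded differently to p110δ and MEK inhibition. MEKi against PI3Kδi gave 0 members at 2-fold, beside 3.09% of all genes. By adjusted p alone 12 were lower with MEKi, beside 14.4% of all genes, and 2 were higher, beside 14.5% (at an unadjusted p under 0.05, 21 and 5). The shares of members were thus 23.5% lower and 3.92% higher. None of these 14 changed sign under either other scaling, on which the median of all genes moved by at most 0.07, but calls were lost. On the common-sum scale 6 of the 14 no longer passed, namely Atf6 (-0.30, adjusted p = 0.054), Pdia4 (-0.13, 0.0698), Srp9 (-0.12, 0.139), Hsp90b1 (-0.10, 0.174), Dnajb11 (-0.08, 0.257) and Hyou1 (-0.06, 0.439), and Edem1 and Rpn2 passed instead. After quantile normalisation Hsp90b1 alone of the 14 was lost (adjusted p = 0.132).

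Herpud1 and Ero1l were the members that PI3Kδi lowered more. Herpud1 stood at 102.70, 97.98 and 101.56 FPKM with MEKi and at 85.8, 76.4 and 84.7 FPKM with PI3Kδi (log2 difference 0.29 ± 0.06, adjusted p = 0.00333). Ero1l stood at 71.0, 74.2 and 72.7 FPKM with MEKi and at 54.8, 57.2 and 54.9 FPKM with PI3Kδi (0.38 ± 0.06, adjusted p = 0.000126). In both genes every MEKi value was above every PI3Kδi value.

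The largest differences toward lower levels with MEKi were those of Atf6 (-0.38 ± 0.09, adjusted p = 0.00684, lost on the common-sum scale) and Creld2 (-0.35 ± 0.08, adjusted p = 0.00294). Creld2 stood at 81.2, 73.6 and 71.0 FPKM with PI3Kδi, which did not overlap its MEKi values. Of the 12, 4 were among the 11 chaperones (Hsp90b1, Hyou1, Dnajb11 and Creld2), 3 among the 5 targeting genes, 2 among the 5 channel genes, and 1 each were of the disulfide, UPR signalling and translocon-associated groups. Srp68 was at 83.7, 71.6 and 75.3 FPKM with PI3Kδi and at 58.2, 64.0 and 59.6 FPKM with MEKi (-0.34 ± 0.06, adjusted p = 0.00112). Sec62, a channel partner for post-translational import, was at 29.4, 31.1 and 28.2 FPKM and at 23.7, 23.7 and 23.1 FPKM (-0.33 ± 0.06, adjusted p = 0.000511), and Ssr3, of the translocon-associated protein complex, was at 152, 160 and 150 FPKM and at 126, 122 and 125 FPKM (-0.30 ± 0.05, adjusted p = 0.000179). Sec61g and Srp14 both differed by -0.28 (adjusted p = 0.0091 and 0.00216). By contrast, the interval of the difference spanned 0 for Hspa5 (-0.13, 95% interval -0.27 to 0.01), Stt3a (-0.02, -0.14 to 0.09), Stt3b (0.01, -0.09 to 0.12), Dad1 (0.01, -0.13 to 0.15), Calr (-0.02, -0.15 to 0.10), Syvn1 (-0.05, -0.23 to 0.13) and Sec61b (-0.04, -0.22 to 0.14).

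**Figure D5:**
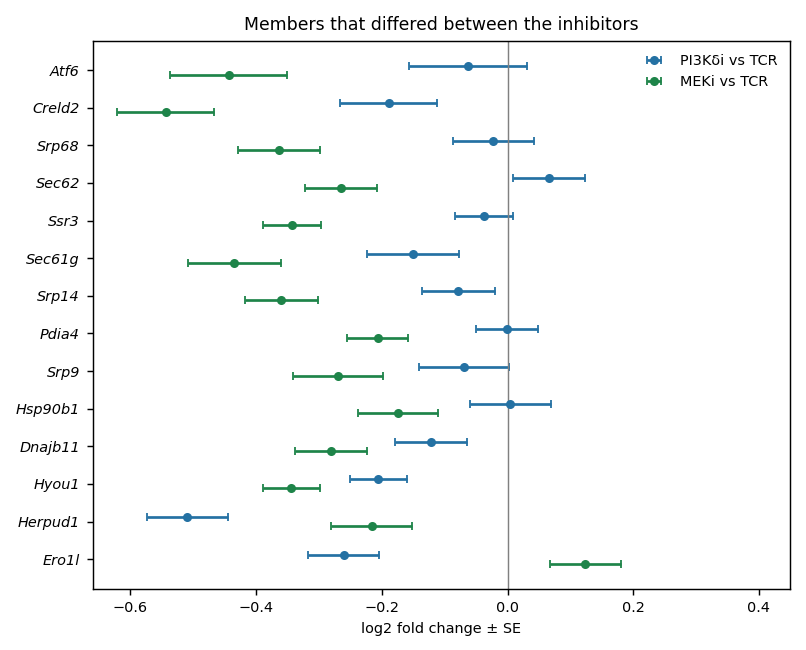
Log2 fold change against TCR alone (dots, with SE as bars) with PI3Kδi and with MEKi for the 14 members that differed between the inhibitors at an adjusted p under 0.05, in order of that difference. MEKi dots lay to the left of PI3Kδi dots for 12 genes, and to the right for Herpud1 and Ero1l.

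The other genes of the pathway were taken from lists of 125 further ER genes, 117 of which were in the table. After TCR stimulation 8 of these 117 were higher at 2-fold (6.84%) and 3 lower (2.56%), beside 8.87% and 11.1% of all genes. By adjusted p alone 47 were higher (40.2%) and 27 lower (23.1%), beside 33.6% and 34.9% of all genes, but on the common-sum scale the balance turned to 17 higher and 74 lower, beside 15.3% and 60.9%. The 8 all came from the list of 18 genes of the remaining UPR arms and stress outputs. The PERK arm moved in opposite ways at its ends. Eif2ak3, the kinase itself, fell from 35.5 ± 1.62 to 21.5 ± 0.828 FPKM (log2 fold change -0.72 ± 0.06, adjusted p = 2.66e-08), whereas Atf4 rose from 177 ± 5.21 to 491 ± 27.7 FPKM (1.47 ± 0.06, adjusted p = 7.38e-12) and Ddit3 from 15.9 ± 1.84 to 56.7 ± 2.42 FPKM (1.84 ± 0.08, adjusted p = 3.14e-11). The largest rises were those of Atf3 (4.76 ± 0.07), Chac1, which degrades glutathione (2.95 ± 0.14), Nupr1 (2.79 ± 0.19), Ppp1r15a, whose product GADD34 reverses the translational block (2.11 ± 0.06), and Creb3l2, an ER-anchored relative of ATF6 (1.99 ± 0.10). The eighth, Trib3, was named after its values were seen and had a log2 fold change of 1.09. On the common-sum scale the first 7 stayed over 2-fold, the smallest being 1.06 for Atf4, while Trib3 was under it (0.68). The 3 that were lower at 2-fold, Tram2, Alg6 and Cnpy4, were low-level genes at 1.87, 3.30 and 8.91 FPKM in unstimulated CTL.

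In these lists too the inhibitors differed. Between MEKi and PI3Kδi 9 of the 18 UPR genes were higher with MEKi by adjusted p, beside 14.5% of all genes. In the same comparison 1 was lower, beside 14.4%. On the common-sum scale 11 were higher and 1 lower, beside 21.1% and 9.24% of all genes. After quantile normalisation 9 were higher and 1 lower, beside 15.4% and 14.8%. Ddit3 stood at 43.4 ± 3.85 FPKM with PI3Kδi and at 63.4 ± 1.60 FPKM with MEKi, against 56.7 ± 2.42 FPKM in TCR (log2 difference between inhibitors 0.55 ± 0.08, adjusted p = 0.000116). Nupr1, at 21.1 ± 0.881 and 42.7 ± 3.02 FPKM, was the 1 gene of the lists to pass the 2-fold rule (1.01 ± 0.19, adjusted p = 0.00113). Atf3 (0.60), Chac1 (0.66), Ppp1r15a (0.25) and Atf4 (0.19) were likewise higher with MEKi, and Creb3l2 was lower (-0.65 ± 0.10, adjusted p = 0.000228). Atf4, Ddit3, Atf3, Chac1, Nupr1 and Ppp1r15a were thus lower with PI3Kδi than with MEKi, while 12 of the 51 members were lower with MEKi than with PI3Kδi. Eif2ak3 was higher with either inhibitor than in TCR, at 29.1 ± 0.629 and 31.0 ± 1.09 FPKM. Of the 22 genes for ER exit in COPII vesicles, 11 rose and 1 fell after TCR stimulation, beside 33.6% and 34.9% of all genes. With PI3Kδi 2 fell (9.09%), beside 12.8% of all genes. With MEKi 10 fell (45.5%) and 2 rose (9.09%), beside 18.2% and 18.9%. On the common-sum scale 1 rose and 13 fell after TCR, beside 15.3% and 60.9%. There 8 were higher with each inhibitor, beside 34.6% of all genes for PI3Kδi and 50.2% for MEKi. After quantile normalisation 3 were higher and 4 lower with MEKi, beside 18.8% and 15.5%.

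The 7 members called after TCR stimulation lie on 6 chromosomes in GRCm38 (GENCODE M21 gene bodies): Hspa5 at chr2:34771970-34777547, Hyou1 at chr9:44379490-44392369, Srprb at chr9:103188032-103202137, Dnajb9 at chr12:44205559-44210326, Atf6 at chr1:170704674-170867771, Herpud1 at chr8:94386438-94395377 and Syvn1 at chr19:6046576-6053712. Some values carry an uncertainty from shared sequence. Srprb shared 18.3% of its 100-base transcript stretches with Gm20425, a gene that overlaps 888 of its exonic bases on the same strand, and Sec61g shared 12.7% with Gm10177. For the other members the share was at most 4.3% (Sec61b). The library kit keeps strand, but whether counting used it is not given in the sources used here. Reads of members and of genes that overlap them on the opposite strand could thus have been mixed. Among the 7 called members, Syvn1 overlaps Mrpl49 over 91 exonic bases. Other members had larger opposite-strand overlaps, among them Srp9 (784 bases), Sec61a1 (549), Sec62 (509) and Hsp90b1 (415).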

How the data were processed

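Libraries were made from polyadenylated RNA of 12 CTL samples (4 groups of 3) with a stranded kit. Per the labels and the study's methods, the authors aligned reads to mm10 with STAR 2.4.2a, counted them per RefSeq gene with Subread 1.5.0, removed low-count genes, applied TMM scaling and computed FPKM with edgeR; the deposited FPKM values are rounded to 2 decimals. Counts were not used here, so depth is unknown and no interval or floor that needs it is given: fitting low values to whole reads placed 32.9% to 64.2% of them within 0.15 of a whole number, where 30% would do so by chance.

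The 51 members were matched by symbol, and all are in the table of 11022 genes. The members, roles and further ER gene lists were chosen with earlier results of these data known. Limma 3.58.1 in R 4.3.3 (moderated test with intensity trend, Benjamini-Hochberg adjustment over all 11022 genes) was run on log2(FPKM + 0.1), with 1 mean per group over all 12 samples. The study's own model used count weights, which FPKM do not allow. Fold changes are on this log2(FPKM + 0.1) scale. The common-sum scale divides each sample by its FPKM total. P-values measure the spread between the biological replicates.

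Same-numbered samples deviated together in the comparisons with an inhibitor. Across 9899 genes their deviations from the group means correlated at 0.239 to 0.451 for PI3Kδi with TCR. The range was 0.122 to 0.182 for MEKi with TCR and 0.137 to 0.149 for MEKi with PI3Kδi. For TCR with unstimulated the values were 0.105, 0.153 and 0.0037, against -0.140 to 0.0276 for unlike numbers. The study's methods derive the 3 replicates of CTL from 3 mice, without saying that a number is the same mouse in each group. The fit was tested on simulated data with known changes. With a replicate SD of 0.1 of the mean, 64 of 67 genes changed 1.5-fold passed by adjusted p. With an SD of 0.2 of the mean, 12 of 67 passed. Of unchanged genes 9 and 4 passed in these settings. A member that did not pass may thus still have changed by a small amount.

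Genes were named by rule: in each comparison all members called, the 5 largest rises and falls among those with an adjusted p under 0.05 and the same direction in all 3 same-numbered pairs, and 17 members fixed by name; of other ER genes up to 5 per list called at 2-fold, plus Eif2ak3, Atf4 and Ddit3. Canx, Dnajc3, Edem3 and the remaining genes that differed between the inhibitors were given values after these were seen. Positions come from GENCODE M21 and promoters from RefSeq (GRCm38.p6), in which 42 of 51 members matched by gene ID. Other pseudocounts, a filter, scalings, a replicate block, fewer samples in the fit, no trend, a test against 2-fold and leaving out each sample were tried.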

Additional observations from a re-analysis of the deposited data

Results flagged for a closer look

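Of the 51 members, 14 differed between the inhibitors in a direct test (limma, adjusted over all 11022 genes), which is a test of the difference of both inhibitors' effects, since the 3 TCR samples are common to them. Values are log2 differences, MEKi minus PI3Kδi. Members lower with MEKi were Atf6 (-0.38), Creld2 (-0.35), Srp68 (-0.34), Sec62 (-0.33), Ssr3 (-0.30), Sec61g (-0.28), Srp14 (-0.28), Pdia4 (-0.21), Srp9 (-0.20), Hsp90b1 (-0.18), Dnajb11 (-0.16) and Hyou1 (-0.14). Members higher with MEKi were Ero1l (0.38) and Herpud1 (0.29). The 3 MEKi values lay apart from the 3 PI3Kδi values in each of the 14. They did so in 28 of the 51 members, beside 43.6% of all genes. Since the 14 were chosen by their adjusted p in these same 6 samples, their separation adds no support. Hsp90b1 lost its call when any 1 of the 6 samples was left out (adjusted p between 0.0528 and 0.16) and with the replicate number as a block (adjusted p = 0.0539). On the common-sum scale Hsp90b1, Atf6 (adjusted p = 0.054), Pdia4 (0.0698), Srp9 (0.139), Dnajb11 (0.257) and Hyou1 (0.439) lost their calls, and Srp9 also lost its call with the block (adjusted p = 0.0525).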

How the results depend on the processing

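The results depended mainly on how samples were scaled. On the common-sum scale, TCR against unstimulated gave 0 members called and a median of 0.0032. It gave 17 higher and 18 lower, beside 15.3% and 60.9% of all genes. PI3Kδi against TCR gave 14 higher and 1 lower, beside 34.6% and 5.04%, with a median of 0.0889. MEKi against TCR gave 14 higher and 3 lower, beside 50.2% and 5.88%, with a median of 0.0550. MEKi against PI3Kδi gave 4 higher and 6 lower, beside 21.1% and 9.24%, with a median of 0.0048. After quantile normalisation the TCR comparison gave 3 called higher, beside 8.36% of all genes, and a median of 0.25. By adjusted p 34 were higher and 8 lower, beside 31.3% and 37%. PI3Kδi gave 3 higher and 6 lower, beside 11.8% and 10.3%, with a median of 0.0110. MEKi gave 4 higher and 17 lower, beside 18.8% and 15.5%, with a median of -0.10. Among the genes named by rule that had an adjusted p under 0.05 as deposited or on the scale compared, those that changed sign on the common-sum scale were, after TCR, Hsp90b1 (-0.22), Ssr1 (-0.34), Spcs1 (-0.25) and Dad1 (-0.0706); with PI3Kδi, Ssr1 (0.18) and Spcs1 (0.16); and with MEKi, Hsp90b1 (0.0880), Calr (0.0461), Xbp1 (0.0853), Herpud1 (0.0459), Sec61b (0.0139), Stt3b (0.0209) and Dad1 (0.0675). After quantile normalisation Hsp90b1 was at -0.19 after TCR, Calr at 0.0139 with PI3Kδi, and Calr at 0.11 and Hsp90b1 at 0.0054 with MEKi. The common-sum scale by its construction removes the difference in FPKM totals; why those totals differ was not tested. A test against 2-fold itself called 3 members after TCR. Leaving out 1 sample at a time gave 6 to 8 members called, 36 to 39 higher and 1 to 3 lower after TCR; 0 to 1 higher, 11 to 21 lower and medians from -0.129 to -0.0786 with PI3Kδi; 0 to 1 higher and 24 to 30 lower with MEKi; and 2 higher and 8 to 11 lower between the inhibitors. With the replicate number as a block, the counts after TCR stayed at 7 called, 37 higher and 2 lower. Same-numbered samples correlated weakly there, at 0.105, 0.153 and 0.0037 for replicates 1, 2 and 3. No member lost or gained a call after TCR or with PI3Kδi (18 lower). MEKi gave 29 lower, without Hsp90b1. Between the inhibitors the count was again 12 lower, but Hsp90b1 and Srp9 lost their calls and Dnajc3 and Edem3 gained one. Of 82 values of named genes, 81 kept direction and call with a pseudocount of 1, and all 82 with a pseudocount of 0.01 or a filter at a mean of 1 FPKM. Depth is unknown, so precision rests on 3 replicates a group.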
